A study of Mus musculus with 13 samples.

Results

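The genes described here are 10 genes of the YAP and TAZ branch of Hippo signalling, out of 54532 genes in the deposited mouse count table. They are the co-activators Yap1 and Wwtr1 (which encodes TAZ), the DNA-binding partner Tead1, the target and regulator genes Ankrd1, Ajuba, Amotl2, Lats2, Crim1 and Axl, and Rest, a repressor of neuronal genes. They were chosen by gene name, with earlier results of these data known. Each name matched 1 row, and all 10 passed the filter on low counts that left 16575 genes for testing. RNA was sequenced from 7 sgKdm6a RPP tumours and 6 sgControl RPP tumours of mouse small cell lung cancer, a neuroendocrine lung cancer. All 13 tumours arose in congenic BL6J mice that carry a Cas9 allele which Cre must switch on, and all carry the RPP background, which in this model stands for guides against Rb1, Trp53 and Rbl2. A further guide targets Kdm6a, the gene of a histone H3 lysine 27 demethylase, or is a control guide. Tumours were untreated and were frozen at necropsy with no sorting of cells stated, and in bulk RNA fewer cells of a type and less RNA per cell cannot be told apart. The sources used here state neither the age of the animals nor the cells in which Cre was active.

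In Hippo signalling the kinases MST1 and MST2 activate LATS1 and LATS2, which phosphorylate YAP and TAZ and so keep them out of the nucleus. Unphosphorylated YAP and TAZ enter the nucleus, bind TEAD factors and switch on genes such as Ankrd1, Ctgf and Cyr61, and also feedback inhibitors such as Lats2 and Amotl2. YAP is abundant in alveolar epithelium, endothelium and fibroblasts, while neuroendocrine small cell lung cancer cells are known for low YAP1 and REST.

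The tumours fell into unequal sets before any gene was compared. Each title holds a number, and sgKdm6a replicates 1 and 2, 4 and 5, and 6 and 7 have 1 number per pair, so they may be of 1 animal. The 7 sgKdm6a tumours thus carry 4 title numbers and the 6 sgControl tumours 6. By size, the numbers form a higher series of 5 sgKdm6a tumours (replicates 3 to 7) and 3 sgControl tumours (replicates 4 to 6), and a lower series of 2 sgKdm6a and 3 sgControl tumours. In the lower series the 3 sgControl titles also hold the prefix 18_ before the number, which no other title has. Prefix and genotype thus cannot be told apart in that series. The labels do not say what the numbers or the prefix mean. The mean over marker lists of alveolar type 1 and type 2 cells, endothelium, macrophages and fibroblasts, here the tissue mean, was 2.55 to 3.81 log2 CPM (counts scaled to library size) in the 5 sgKdm6a tumours of the higher series and 4.17 to 4.62 in sgKdm6a replicates 1 and 2. It was 7.96 log2 CPM in sgControl replicate 6, which stood apart, and 4.21 to 4.76 in the other 5 sgControl tumours. The mean over 4 Y-linked genes was above 0 log2 CPM in 1 of 7 sgKdm6a tumours and 5 of 6 sgControl tumours, and at -2.62 or below in the others. Y-linked reads thus largely follow genotype, and a part of either in the levels below, that of Kdm6a included, cannot be fully told apart. The neuroendocrine peptide gene Calca was read in every tumour, at 17.8 to 10242 CPM in sgKdm6a and 256.5 to 1485 CPM in sgControl tumours. Kdm6a mRNA (chromosome X) was at 42.7 to 91.3 CPM in sgKdm6a and 51.7 to 112 CPM in sgControl tumours (log2 fold change -0.14, SE 0.22, adjusted p = 0.887, edgeR); a guide-made frameshift need not lower mRNA, so this level checks the labels only weakly.

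The promoters of 8 of the 10 genes were matched in RefSeq (build GRCm38.p6), in 10 windows of 300 bases that run from 250 before to 50 after the annotated start. The 4 below are shown because they belong to both co-activators and to the pair of genes whose level differed most between sgControl replicate 6 and the other sgControl tumours. Capitals mark the TEAD core, the letters GGAATG or, on the other strand, CATTCC. All are on the minus strand and are written 5′ to 3′ along the gene, Ankrd1 at chr19:36119795-36120094, Ajuba at chr14:54577612-54577911, Yap1 at chr9:8004547-8004846 and Wwtr1 at chr3:57575861-57576160.
Ankrd1: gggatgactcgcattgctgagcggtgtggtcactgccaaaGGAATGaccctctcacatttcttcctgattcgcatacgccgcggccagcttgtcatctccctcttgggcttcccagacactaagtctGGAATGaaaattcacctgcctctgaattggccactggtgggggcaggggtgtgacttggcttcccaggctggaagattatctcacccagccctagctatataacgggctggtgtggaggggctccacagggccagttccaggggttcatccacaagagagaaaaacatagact
Ajuba: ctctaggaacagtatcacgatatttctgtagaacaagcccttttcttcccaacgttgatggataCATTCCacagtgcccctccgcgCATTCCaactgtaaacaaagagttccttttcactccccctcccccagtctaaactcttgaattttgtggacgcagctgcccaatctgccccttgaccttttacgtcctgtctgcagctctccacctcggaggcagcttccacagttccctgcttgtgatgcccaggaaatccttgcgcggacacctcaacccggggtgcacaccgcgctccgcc
Yap1: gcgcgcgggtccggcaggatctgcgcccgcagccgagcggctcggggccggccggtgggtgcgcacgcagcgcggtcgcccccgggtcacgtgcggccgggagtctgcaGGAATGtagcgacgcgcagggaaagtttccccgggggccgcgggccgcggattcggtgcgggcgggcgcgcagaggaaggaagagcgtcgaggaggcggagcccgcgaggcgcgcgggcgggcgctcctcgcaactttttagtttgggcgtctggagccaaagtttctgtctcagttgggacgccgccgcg
Wwtr1: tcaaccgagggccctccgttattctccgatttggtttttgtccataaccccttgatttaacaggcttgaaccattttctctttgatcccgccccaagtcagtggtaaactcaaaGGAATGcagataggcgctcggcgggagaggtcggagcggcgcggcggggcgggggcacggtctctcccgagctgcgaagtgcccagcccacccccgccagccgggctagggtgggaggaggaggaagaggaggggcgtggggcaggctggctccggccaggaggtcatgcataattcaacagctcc
The core begins 210 and 123 bases before the start site in Ankrd1, 186 and 164 bases before it in Ajuba, 141 before it in Yap1 and 136 before it in Wwtr1. It was found in 9 of the 10 windows and in all 8 genes, and in 4817 of 32851 RefSeq promoter windows of this length (14.7%). The 9 count 1 site of Wwtr1 more than once, as Wwtr1 has another, overlapping window that holds the same core. Lats2 also has another window, which lacks the core. In Axl it begins 233 bases, in Crim1 79 bases and in Amotl2 65 bases before the start, and in Lats2 at base 5 after it. The AP-1 core TGANTCA, which reads alike on both strands, was in 0 of the 10 windows and in 7.81% of all windows. These matches describe letters in a window, and no binding was measured.

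Per length, Tead1 was the most abundant of the 10 mRNAs and the co-activators were low. The median deposited FPKM (fragments scaled to gene length and library size) over 13 tumours was 13.9 for Tead1, 6.48 for Crim1, 6.21 for Axl, 3.41 for Amotl2 and 2.35 for Wwtr1. It was 0.810 for Yap1, 0.672 for Ajuba, 0.442 for Lats2, 0.439 for Rest and 0.414 for Ankrd1. Wwtr1 exceeded Yap1 in all 13 tumours and Tead1 exceeded Crim1 in 12. Of the other neighbours in this order, the first exceeded the second in 10 tumours for Axl over Amotl2, in 11 for Ajuba over Lats2, and in 7 to 9 for the rest, whose order is not separated by their spread.

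**Figure D1:**
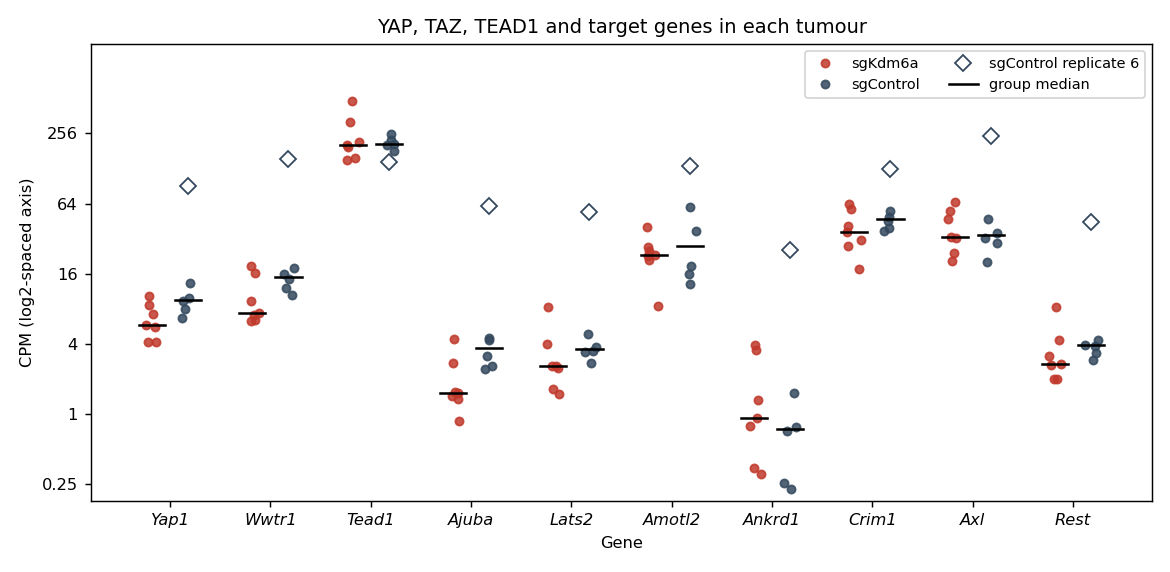
CPM of each of the 10 genes in each tumour on a log-spaced axis, sgKdm6a left and sgControl right; points are tumours, the diamond is sgControl replicate 6 and bars are group medians. The diamond lies above every other tumour for 9 genes and below every other tumour for Tead1, and for Wwtr1, Ajuba and Lats2 5 sgKdm6a tumours lie below the lowest sgControl tumour.

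Yap1 (ENSMUSG00000053110, chromosome 9, 7931999 to 8004596, minus strand, mm10) was at 10.3 and 8.61 CPM in sgKdm6a replicates 1 and 2, which share a title number, and at 4.19, 5.81, 7.16, 5.57 and 4.19 CPM in sgKdm6a replicates 3 to 7. The 6 sgControl tumours had 6.73, 7.97, 13.2, 9.91, 9.27 and 90.0 CPM. sgControl replicate 6 thus held 9.71 times the median of the other 5 sgControl tumours. Of the sgKdm6a tumours, 4 lay below every sgControl tumour and the groups overlapped. The log2 fold change of sgKdm6a over sgControl was -1.80 (SE 0.61; edgeR quasi-likelihood test, adjusted p = 0.419). Without sgControl replicate 6 it was -0.53 (SE 0.29; edgeR adjusted p = 0.875).

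Wwtr1 (ENSMUSG00000027803, chromosome 3, 57455649 to 57575910), the gene of the paralogue TAZ, had the same layout. It was at 18.5 and 16.1 CPM in sgKdm6a replicates 1 and 2 and at 6.26, 7.06, 7.41, 6.42 and 9.39 CPM in sgKdm6a replicates 3 to 7, against 15.8, 11.95, 14.4, 17.8, 10.4 and 155 CPM in sgControl replicates 1 to 6. All 5 sgKdm6a tumours of the higher series were below every sgControl tumour, while sgKdm6a replicates 1 and 2 lay near the top of the sgControl range, replicate 6 aside. By edgeR, sgKdm6a over sgControl stood at a log2 fold change of -1.89 (SE 0.66, adjusted p = 0.419), and at -0.47 (SE 0.32) without sgControl replicate 6.

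Tead1 (chromosome 7, 112679318 to 112906807) encodes a factor through which YAP and TAZ reach DNA. It ranged over 151, 205 and 488 CPM (lowest, median and highest) in sgKdm6a tumours and over 145, 206 and 251 CPM in sgControl tumours. It was the only one of the 10 genes for which sgControl replicate 6 was the lowest tumour, at 0.694 times the median of the other sgControl tumours. Of the sgKdm6a tumours, 2 were above every sgControl tumour, replicates 1 and 3. Its log2 fold change in edgeR, 0.29 (SE 0.26), had an adjusted p of 0.760, and the value was 0.049 (SE 0.20) without sgKdm6a replicate 3, the tumour at 488 CPM.

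Ajuba (chromosome 14, 54567472 to 54577558) encodes a LIM protein that binds LATS kinases and limits them. Its lowest, median and highest values were 0.863, 1.52 and 4.44 CPM in sgKdm6a tumours and 2.45, 3.70 and 61.1 CPM in sgControl tumours, 17 to 81 counts against 47 to 993. Among the sgKdm6a tumours, 5 were below every sgControl tumour, and sgKdm6a replicates 1 and 2 were within the sgControl range. edgeR gave Ajuba a log2 fold change of -2.71 (SE 0.83, adjusted p = 0.419), the most negative of the 10, and of -0.77 (SE 0.41) without sgControl replicate 6, which held 19.6 times the median of the other 5.

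Lats2 (chromosome 14, 57689662 to 57758388), the kinase that phosphorylates YAP and is itself a YAP target, ranged over 1.47, 2.58 and 8.35 CPM in sgKdm6a tumours and 2.76, 3.61 and 54.4 CPM in sgControl tumours. Again 5 sgKdm6a tumours lay below every sgControl tumour, while sgKdm6a replicate 1 was second only to sgControl replicate 6. Between genotypes Lats2 differed by a log2 fold change of -1.87 (SE 0.78, adjusted p = 0.451 in edgeR), and by -0.14 (SE 0.43) without sgControl replicate 6. The annotation gives Lats2 42.4% of its exonic bases in common with Gm49361 on the same strand, which is listed at 0 counts, and the labels do not say how reads of the shared stretch were counted.

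Rest (chromosome 5, 77265491 to 77286432) encodes the zinc finger repressor that keeps neuronal genes off in other cells. Its lowest, median and highest values were 1.98, 2.67 and 8.26 CPM in sgKdm6a tumours against 2.92, 3.88 and 44.8 CPM in sgControl tumours, and 4 sgKdm6a tumours lay below every sgControl tumour. For Rest edgeR gave a log2 fold change of -1.56 (SE 0.71, adjusted p = 0.483), and -0.04 (SE 0.38) without sgControl replicate 6.

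The remaining 4 genes gave p above 0.05 in the comparison of all tumours. Amotl2 (chromosome 9, 102716672 to 102733418), an angiomotin that holds YAP in the cytoplasm, ranged over 8.46, 23.0 and 40.4 CPM in sgKdm6a and 13.1, 27.8 and 133 CPM in sgControl tumours. Its log2 fold change was -0.95 (SE 0.52), and -0.27 (SE 0.41) without sgControl replicate 6, and 1 sgKdm6a tumour lay below every sgControl tumour. Crim1 (chromosome 17, 78200248 to 78376592), a transmembrane protein that binds BMPs, had 17.4, 36.7 and 63.99 CPM in sgKdm6a and 37.1, 47.2 and 128 CPM in sgControl tumours; it shares 2.05% of its exonic bases with Fez2 on the other strand, which the unstranded library cannot tell apart. Between genotypes Crim1 had a log2 fold change of -0.59 (SE 0.35), which was -0.21 (SE 0.28) without sgControl replicate 6.

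Axl (chromosome 7, 25757273 to 25788705), a receptor tyrosine kinase, ranged over 20.4, 33.4 and 65.6 CPM in sgKdm6a and 20.1, 34.3 and 243 CPM in sgControl tumours, and no sgKdm6a tumour lay below all of the sgControl tumours. The log2 fold change of Axl was -0.77 (SE 0.55), and 0.27 without sgControl replicate 6. Ankrd1 (chromosome 19, 36111965 to 36119844), a muscle ankyrin repeat protein and a standard YAP readout, had the lowest median FPKM of the 10 and ranged over 0.304, 0.920 and 3.89 CPM in sgKdm6a and over 0.228, 0.745 and 25.4 CPM in sgControl tumours. At these depths 3 counts stand for 0.131 to 0.178 CPM, so its low tumours rest on a few reads. Its log2 fold change was -1.59 (SE 1.09), and 1.17 (SE 0.73) without sgControl replicate 6, so its direction turned with that tumour.

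Across the 10 genes, 0 passed the adjusted p threshold of 0.05 by edgeR, as did 0 of the 16575 genes tested. At an unadjusted p under 0.05, 5 of the 10 were lower in sgKdm6a tumours (Yap1, Wwtr1, Ajuba, Lats2 and Rest) and 0 were higher, against a background of 6.97% of all genes lower and 3.18% higher, or 10.2% (1683 genes) in either direction. Since the 10 were chosen with earlier results of these data known, this count is not that of an independent list. With counts summed over title numbers 3 of the 10 passed, Lats2 and Rest no longer, and with a correlation within title numbers (limma-voom) 0 did. Without any 1 of sgKdm6a replicates 3 to 7, 3 of the 10 passed (Yap1, Wwtr1 and Ajuba), and without sgKdm6a replicate 2, 4 did. DESeq2 called 65 of the 15833 genes to which it gave a p (0.411%) at an adjusted p under 0.05, none of the 10 among them. It gave no p to 6 of the 10 (Yap1, Wwtr1, Ankrd1, Ajuba, Lats2 and Rest), and none of the other 4 passed an unadjusted p of 0.05, as 10.6% of genes did. With sgControl replicate 6 left out, DESeq2 gave a p to all 10, and none passed an unadjusted p of 0.05. In the edgeR fit of all 13 tumours the median log2 fold change of the 10 was -1.58, against -0.0017 for all genes. Without sgControl replicate 6, 0 of the 10 passed an unadjusted p of 0.05, against 5.54% of 16831 genes (2.75% higher and 2.79% lower), and their median was -0.17, against 0.013 for all genes. No gene of the 10 had groups that did not overlap, which 0.163% of genes did with all sgKdm6a tumours below.

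An exact permutation test of the difference in mean log2 CPM over all 1716 splits of 13 tumours, two-sided and unadjusted over 10 tests, gave p = 0.0210 for Yap1, 0.0367 for Wwtr1 and 0.0128 for Ajuba. The smallest p it can give is 5.83e-04, and the other 7 genes gave p of 0.157 or above. Over 12 tumours without sgControl replicate 6, the exact test gave p = 0.0581 for Yap1, 0.0985 for Wwtr1 and 0.0429 for Ajuba. With 1 mean per title number, 4 sgKdm6a against 6 sgControl numbers, exact p was 0.105 for Yap1, 0.114 for Wwtr1 and 0.0810 for Ajuba. Over these means without sgControl replicate 6, the exact permutation test gave p = 0.0714 for Yap1, 0.111 for Wwtr1 and 0.0635 for Ajuba. The exact test was not run on all genes.

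**Figure D2:**
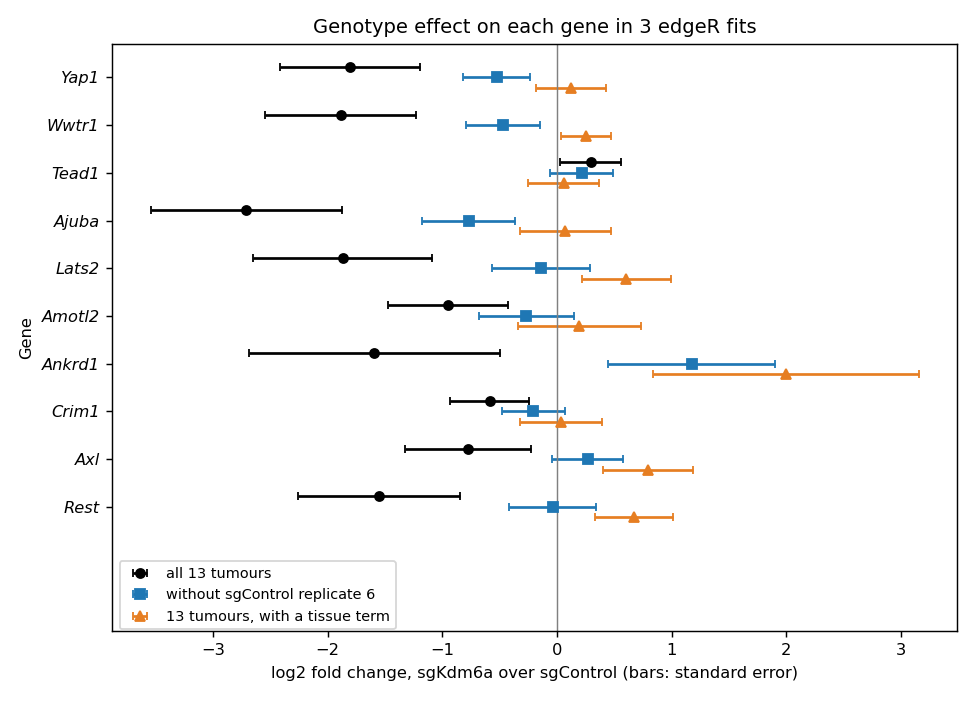
log2 fold change of sgKdm6a over sgControl with its standard error for the 10 genes in 3 edgeR fits, of 13 tumours, of 12 tumours without sgControl replicate 6, and of 13 tumours with a term for tissue content. For 9 genes the first estimate is below 0, and all 10 estimates lie above 0 with the tissue term.

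A second edgeR fit held a term for the tissue mean defined above. In it all 10 log2 fold changes were above 0, with a median of 0.22, and 0 of the 10 passed an unadjusted p of 0.05, against 7.22% of all genes (3.57% higher and 3.66% lower). The share of all genes above 0 in this fit was not computed, so the 10 above 0 have no background. Yap1 was at 0.12, Wwtr1 at 0.25, Ajuba at 0.07 and Lats2 at 0.61. With this term but without sgControl replicate 6, 4 of the 10 log2 fold changes were below 0. The tissue mean of the 5 sgKdm6a tumours of the higher series is below that of every sgControl tumour, and its part in the difference was not tested beyond these fits.

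sgControl replicate 6 held 7.19 times the median of the other 5 sgControl tumours for Amotl2, 7.496 times for Axl, 11.7 times for Rest, 10.8 times for Wwtr1, 15.8 times for Lats2, 35.7 times for Ankrd1 and 2.81 times for Crim1. The median of the 10 genes was 3.34 on the log2 scale, beside 2.87 for 22 YAP and TAZ target genes and -0.09 for all genes tested, of which 19.9% were more than 1 above. The same quantity was 4.58 for macrophage markers, 4.07 for alveolar type 2, 3.66 for endothelial, 3.51 for alveolar type 1, 3.22 for fibroblast and pericyte and 1.94 for T and NK cell markers. Airway epithelial markers stood at -0.63 and neuroendocrine markers at -1.09. Among single markers, surfactant Sftpc was at 0.362 to 230 CPM in sgKdm6a tumours, 4773 CPM in sgControl replicate 6 and 132 to 1228 CPM in the remaining 5. The macrophage lysozyme Lyz2 was at 73.2 to 372 CPM in sgKdm6a tumours, 11984 CPM in sgControl replicate 6 and 194 to 1331 CPM in the other 5.

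**Figure D3:**
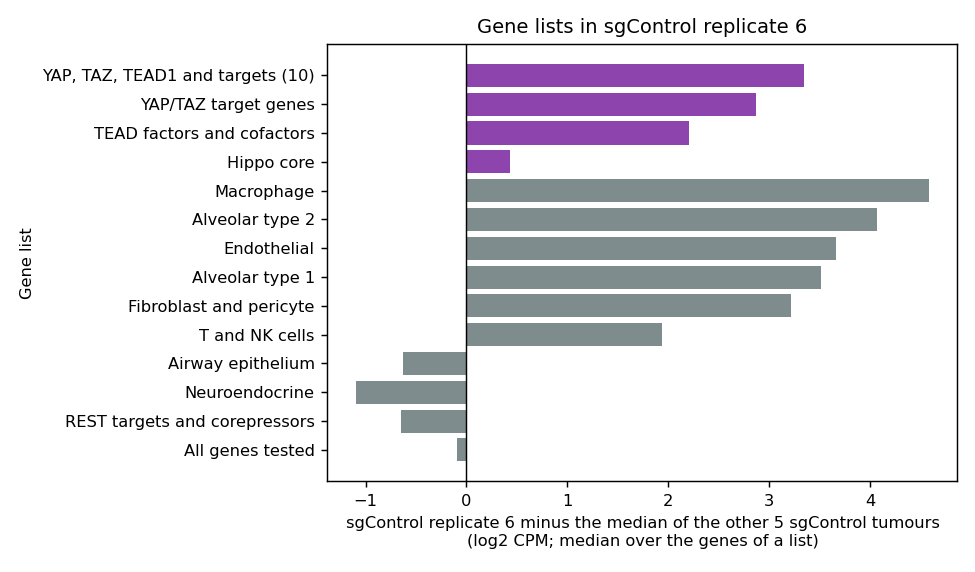
Median over the genes of each list of the log2 CPM in sgControl replicate 6 minus the median of the other 5 sgControl tumours; each bar is a list. The 10 genes stand at 3.34 and the YAP and TAZ target list at 2.87, the macrophage, alveolar, endothelial and fibroblast lists at 3.22 to 4.58, the T and NK list at 1.94, and the airway (-0.63) and neuroendocrine (-1.09) lists below 0.

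Other genes of the pathway were taken from lists of its parts, also chosen with earlier results of these data known. At an unadjusted p under 0.05, 6.97% of all genes were lower in sgKdm6a tumours and 3.18% higher. Of 18 Hippo core kinases and scaffolds, 1 was lower (Lats2, above), a share near that of all genes, and 0 were higher, with a median log2 fold change of -0.02. Among TEAD factors and cofactors, 8 of 10 were tested and 3 were lower, Tead4 (-2.06, SE 0.68, and -0.77 without sgControl replicate 6) beside Yap1 and Wwtr1, with a median of -0.95. Tead4 was at 0.207 to 1.29 CPM in sgKdm6a and 0.817 to 1.54 CPM in sgControl tumours without replicate 6, which had 10.8 CPM. Of the 6 angiomotin and LIM proteins, 1 was lower (Ajuba).

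Of 22 YAP and TAZ target genes, which include 5 of the 10, 6 were lower and 0 higher at an unadjusted p under 0.05, where 6.97% of all genes were lower, with a median of -0.48. Cyr61 (Ccn1), a secreted matrix protein, had 3.03, 5.11 and 15.4 CPM (lowest, median, highest) in sgKdm6a tumours, against 9.53, 11.1 and 16.7 CPM in sgControl tumours without replicate 6 and 216 CPM in that tumour. Its log2 fold change was -2.69 (SE 0.82, adjusted p = 0.419 by edgeR), and -0.82 without that tumour. The log2 fold change was -2.17 (SE 0.73) for Ctgf (Ccn2), a matricellular protein, -1.74 (SE 0.62) for F3 (tissue factor) and -1.81 (SE 0.70) for Igfbp3, which binds insulin-like growth factors. Without sgControl replicate 6 it was -0.57 for Ctgf, -0.64 for F3 and -0.41 for Igfbp3, and the list's median was 0.05. With that tumour left out, 0 genes of these 4 lists were lower at an unadjusted p under 0.05, beside 2.79% of all genes.

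The neuronal genes that REST represses and its corepressors form a list of 23. At an unadjusted p under 0.05, 2 were higher (Rcor3 and Syp), beside 3.18% of all genes. Rest itself was the 1 gene lower, beside 6.97% of all genes. Of the 23, 18 had a log2 fold change above 0, as did 49.7% of all genes (median 0.15, beside -0.0017). sgControl replicate 6 stood at a list median of -0.65 (log2 scale) relative to the other 5. Without it, 1 was higher and 0 were lower, beside 2.75% and 2.79% of all genes. There 14 were above 0, as were 51.9% of all genes. Rcor3, a corepressor, was at 31.5 to 47.8 CPM in sgKdm6a and 26.7 to 36.4 CPM in sgControl tumours without replicate 6 (23.7 CPM); its log2 fold change was 0.43 (SE 0.15, with an adjusted p of 0.420 by edgeR), and 0.36 (SE 0.15), again at an unadjusted p under 0.05, without that tumour. Syp, a synaptic vesicle protein, was at 84.0 to 235 CPM in sgKdm6a tumours against 76.0 to 128 CPM in sgControl tumours without replicate 6. Its log2 fold change was 0.66 (SE 0.27), and 0.55 (SE 0.26) without that tumour, where it no longer passed an unadjusted p of 0.05.

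The sgKdm6a tumours below all sgControl tumours were of the higher title-number series. Every sgKdm6a tumour that lay below all sgControl tumours, for Yap1, Wwtr1, Ajuba, Lats2, Crim1, Rest or Amotl2, was among those 5, and none was sgKdm6a replicate 1 or 2. In an edgeR interaction of genotype and series over 13 tumours, 7 of the 10 genes passed an unadjusted p of 0.05 with the higher series below the lower, as did 5.22% of all genes. The difference between the series was -2.78 (SE 1.04) for Yap1 and -3.37 (SE 1.05) for Wwtr1, and the smallest adjusted p was 0.712. Without sgControl replicate 6, 5 of the 10 did, against 2.08% of all genes, with differences of -1.25 for Wwtr1, -1.47 for Ajuba, -1.52 for Amotl2, -1.83 for Lats2 and -1.30 for Rest (edgeR adjusted p = 0.999).

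Within the higher series alone and without sgControl replicate 6, the log2 fold change was -0.96 (SE 0.35) for Wwtr1 and -1.37 (SE 0.45) for Ajuba in 5 sgKdm6a against 2 sgControl tumours. These 2 of the 10 genes were lower at an unadjusted p under 0.05, as were 1.73% of genes, and both had an edgeR adjusted p of 0.998. There Wwtr1 was at 6.26 to 9.39 CPM in sgKdm6a and 10.4 and 17.8 CPM in sgControl tumours, and Ajuba at 0.863 to 1.54 CPM in sgKdm6a against 2.45 and 4.46 CPM in sgControl tumours. Yap1 was at 4.19 to 7.16 CPM in sgKdm6a against 9.27 and 9.91 CPM in sgControl tumours, and Lats2 at 1.47 to 2.59 against 3.39 and 4.89 CPM. For these 4 of the 10 genes all sgKdm6a tumours lay below both sgControl tumours, as they did for 4.86% of all genes. In the lower series all 10 estimates were above 0, from 0.014 for Yap1 to 2.69 for Ankrd1, in 2 sgKdm6a tumours of 1 title number against 3 sgControl tumours. The share of all genes above 0 in the lower series was not computed. Ankrd1 alone was higher there at an unadjusted p under 0.05, against 2.92% of genes (edgeR adjusted p = 0.907). The tissue mean, which divides the sgKdm6a tumours by series in the same way, and the series cannot be told apart here. Within the lower series, genotype and the title prefix 18_ of the sgControl tumours cannot be told apart either.

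**Figure D4:**
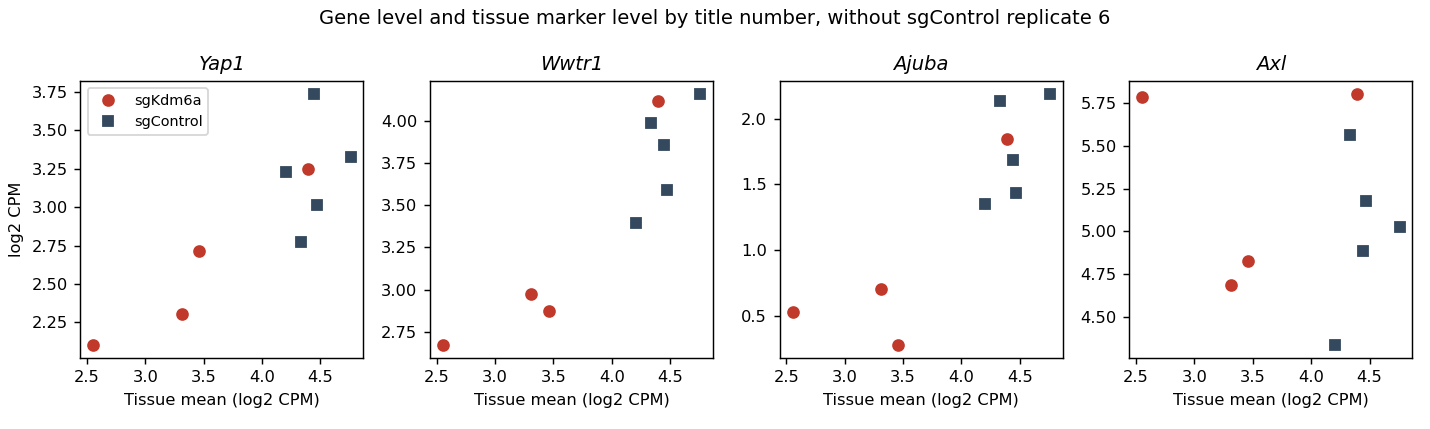
log2 CPM of Yap1, Wwtr1, Ajuba and Axl against the tissue mean (log2 CPM), 1 point per title number, without sgControl replicate 6. The 3 sgKdm6a numbers of the higher series lie at the low end of the tissue mean, apart from the other 6 numbers.

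Because the title numbers form those 2 sets, no correlation was taken over all of them. Within the other 6 numbers, 19 relations of the genes with Yap1 and with the tissue mean were computed, and 0 passed adjustment (smallest adjusted exact permutation p = 0.554 for Pearson and 0.824 for Spearman). Tumours that share a number were closer than tumours of different numbers for 9 of the 10 genes. The share of all genes for which this holds was not computed. Each pair that shares a number lies within 1 series, while other pairs also cross the series, so number and series are mixed here. The median absolute log2 CPM difference of Wwtr1 was 0.20 over 3 sgKdm6a pairs that share a number and 0.87 over 18 pairs that do not. For Amotl2 it was 0.82 against 0.48, and the 3 pairs that share a number differed by 0.27, 0.82 and 1.66.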

How the data were processed

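RNA of 13 frozen mouse tumours was sequenced as read pairs from unstranded libraries, per the labels' protocols. STAR, DESeq2 and the build mm10 are named in the submitters' processing notes; the sources used here do not name the counting program or the annotation release. The authors deposited whole-number gene counts and FPKM; the FPKM are scaled by gene length and library size. Totals were 16835726 to 22910187 counts per tumour, and 3 counts served as floor, 0.131 to 0.178 CPM.

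Groups came from the genotype label, with replicates numbered in accession order. Nothing states separate animals, so p-values measure only the spread between these tumours, which may be technical. The genotype test on counts was that of edgeR 4.0.16 under R 4.3.3 (filterByExpr, TMM, robust quasi-likelihood F test, no covariate), with Benjamini-Hochberg adjustment over 16575 genes and a threshold of 0.05. The SE is the size of the log2 fold change divided by the root of F. CPM used TMM-scaled libraries, log2 CPM a prior count of 2, and FPKM compared levels between genes. The tissue term is the mean log2 CPM of 5 lists: alveolar type 1, alveolar type 2, endothelial, macrophage, and fibroblast and pericyte markers. The fit was tested on simulated data. Alternatives used DESeq2 1.42.0, limma 3.58.1, other filters and scalings, added terms, title-number sums and left-out tumours.

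The genes, pathway lists and marker lists were chosen with earlier results of these data known. Named were the 10 genes, up to 4 genes per pathway list at an unadjusted p under 0.05 (or the 2 of smallest p), and markers from the 2 most abundant of a list; 1 item is not reported here.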

Additional observations from a re-analysis of the deposited data

Results flagged for a closer look

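In 8 of the 10 genes, sgControl replicate 6 was far above the other sgControl tumours, by its gap in log2 CPM to the next tumour as a share of the group's range, which exceeded Dixon's 95% value for 6 samples. The share was 0.741 for Yap1, 0.802 for Wwtr1, 0.635 for Ankrd1, 0.817 for Ajuba, 0.811 for Lats2, 0.680 for Crim1, 0.658 for Axl and 0.862 for Rest. In the sgKdm6a tumours, the lowest Amotl2 value, in replicate 6, had a share of 0.574. In all, 9 of 20 groups were beyond that value, where chance gives about 1 in 20, and 8 of the 9 are the same tumour.

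The sgKdm6a over sgControl log2 fold change differed between the higher and the lower title-number series at an unadjusted p under 0.05 (edgeR interaction) for 7 of the 10 genes. In all 7 the higher series was below the lower, as it was for 5.22% of all genes. The difference, higher minus lower series, was -2.78 for Yap1, -3.37 for Wwtr1, -5.65 for Ankrd1, -4.18 for Ajuba, -2.18 for Amotl2, -4.17 for Lats2 and -3.56 for Rest. None passed adjustment over all genes, and the lower series holds 1 sgKdm6a title number. In that series only the sgControl titles carry the prefix 18_.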

How the results depend on the processing

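Leaving out any one of the other 12 tumours kept the sign of all 10 log2 fold changes, and so did RLE scaling factors and no filter on low counts. Without sgControl replicate 6, 0 of the 10 passed an unadjusted p of 0.05, alone or under 5 of the 6 combined settings, which were chosen after seeing the data. Leaving out 1 tumour at a time, the log2 fold change spanned -2.0 to 1.17 for Ankrd1 and -0.97 to 0.27 for Axl. For Ankrd1 it was 1.34 without that tumour and with counts summed over title numbers, 1.19 with DESeq2, 1.10 with the tissue term, 1.18 with RLE factors, 1.51 with the Y-linked term and 0.035 in the higher series. For Axl the same settings gave 0.32 with summed counts, 0.273 with both DESeq2 and RLE factors, 0.52 with the tissue term, 0.44 with the Y-linked term and 0.33 in the higher series. With the tissue term and without that tumour, 4 of the 10 were below 0: Yap1 at -0.12, Ajuba at -0.14, Amotl2 at -0.12 and Crim1 at -0.19. In the same fit Wwtr1 was at 0.17, Lats2 at 0.46 and Rest at 0.53.

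With the tissue term on 13 tumours, the log2 fold change was 0.12 for Yap1, 0.25 for Wwtr1, 2.0 for Ankrd1, 0.072 for Ajuba, 0.19 for Amotl2, 0.61 for Lats2, 0.032 for Crim1, 0.79 for Axl and 0.67 for Rest. In the lower series alone it was 0.014 for Yap1, 0.30 for Wwtr1, 2.69 for Ankrd1, 0.11 for Ajuba, 0.53 for Amotl2, 0.89 for Lats2, 0.094 for Crim1, 0.59 for Axl and 0.76 for Rest. With limma-voom and a correlation within title numbers, Ankrd1 was at 0.083. The cause was not tested.

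Of the 10 genes, 5 passed an unadjusted p of 0.05 in the fit of 13 tumours. This became 3 with counts summed over title numbers or with the series as a term, and 1 in the lower series alone or on log2(FPKM + 0.1). It was 0 with DESeq2, which gave no p to any of the 5 that passed in the fit of 13 tumours, so this 0 does not test them. It was also 0 with limma-voom, the Y-linked or tissue term or log2(FPKM + 1), and 0 to 6 when 1 tumour was left out. The higher series alone gave 7 (Yap1, Wwtr1, Ankrd1, Ajuba, Amotl2, Lats2 and Rest). In that fit sgControl replicate 6 is 1 of 3 sgControl tumours, and the share of all genes is not given. Without sgControl replicate 6 the higher series gave 2, both lower, as were 1.73% of all genes. Genes at an adjusted p under 0.05 numbered 0, but 65 with DESeq2 and 67 with DESeq2 and without sgControl replicate 6. Genes at an unadjusted p under 0.05 numbered 1683, but 3262 with no filter, 946 with summed counts, 859 with limma-voom, 894 in the lower series, 1093 with the Y-linked term and 1043 on log2(FPKM + 1). Leaving out 1 tumour gave 932 to 1938, of which 932 without sgControl replicate 6; with that tumour out as well, summed counts gave 791, RLE factors 940 and the higher series 625.

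The exact-test difference in mean log2 CPM was -0.55 for Yap1, -0.57 for Wwtr1, 0.83 for Ankrd1 and 0.21 for Axl without sgControl replicate 6. Over title-number means it was -1.17 for Yap1, -1.22 for Wwtr1, -1.61 for Ajuba and 0.15 for Ankrd1. No paired analysis was possible because replicate numbers follow accession order and title numbers are shared only within sgKdm6a. The planned relations over 9 title numbers and over 12 tumours, and the ranking of genes by likeness to Yap1, are not given, since the numbers form 2 sets. Depth limits Ankrd1, with as few as 4 counts in a tumour.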
